A study of Mus musculus with 152 samples.

Results

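Livers of mice kept on the purified control diet for 12 weeks were compared with livers of mice kept on the same diet for 1 week. The 16 samples labelled week 12 control and week 1 control were taken, of 152 samples in the whole study. All were livers of C57BL/6J mice, an inbred laboratory strain, fed from 8 weeks of age, so that age and time on the diet increase together. The study set this control diet against LIDPAD, a diet that induces non-alcoholic fatty liver disease. The 8 groups of both diets at weeks 1, 4, 8 and 12 are used below, also to set the scale and the spread. Each block of 4 consecutive samples of a group differed by little more than sampling noise (chi-square per gene 2.04 to 2.16 within blocks and at least 3.50 between them) and was averaged as 1 library. That left 2 libraries at week 12 and 2 at week 1. Whether a library stands for an animal of its own is not in the labels, so every p-value below rests on a spread between libraries that could be technical. Sex and the hour of collection were not in the labels; the Y-linked gene Ddx3y had 80.0 and 67.5 FPM in week 12 control livers and 73.4 and 69.6 FPM in week 1 control livers.

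The liver of a young adult mouse goes on maturing while it is sampled. Growth hormone pulses set much of its sex-typical output, such as the major urinary proteins of males, and feeding times and the circadian clock set the daily level of many enzymes. Hepatocytes near the portal vein and near the central vein carry different enzymes, with urea formation and glucose production on the portal side and glutamine synthesis on the central side. The liver also makes the acute-phase proteins of the blood, which inflammatory cytokines induce.

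The deposited values are FPM, that is counts divided by a size factor and expressed per 1000000, and each week's table was scaled on its own. Values below are FPM brought to a common scale by 1 factor per library, so they compare a gene between libraries and not between genes of unequal length. The depth of the 4 control libraries was 40.8 to 53.8 M (1000000 reads). Hepatocyte marker genes summed to 81735 and 73169 FPM in week 12 control livers and 79568 and 83136 FPM in week 1 control livers. Exocrine pancreas and skeletal muscle markers summed to at most 0.508 FPM in any of the 4. Log2 changes are differences of mean log2(FPM + 0.5) ± SE, week 12 control minus week 1 control, and understate the change of low genes. In bulk liver, fewer cells of a type and less RNA per cell cannot be told apart.

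The test between the 2 ages called almost nothing. Of 13051 genes tested with limma (Benjamini-Hochberg adjusted p under 0.05), 1 was higher at week 12 (0.00766%) and 0 were lower. At an unadjusted p under 0.05, 297 genes were higher (2.28%) and 358 lower (2.74%), together 655 genes or 5.02%. Count tests on the recovered reads gave 1 gene with edgeR and 34 genes with DESeq2, 18 higher and 16 lower. The limma count was 0 without either week 1 control library, without the first week 12 control library, without either week 12 LIDPAD library, under quantile normalization, with no filter and with no trend. The 2 libraries of week 12 lay above both libraries of week 1 for 2110 genes (16.2%) and below both for 2450 genes (18.8%). Most genes differed little: 90% of log2 changes fell between -0.34 and 0.35, and the 95% interval of 12222 genes (93.6%) lay within a 2-fold change either way. Between the ages 81 genes differed by over 2-fold, 33 higher and 48 lower. Between the 2 week 12 libraries 80 genes differed as much, and between the 2 week 1 libraries 42. The first count compares means of 2 libraries and the others compare single libraries, which vary more, so they are unlike measures.

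The scale on which the tables are read decides most of this. On the values as deposited, the median gene had a log2 change of 0.32, and 2587 genes were called higher and 13 lower. The scaling factors of the week 1 control libraries were 1.28 times those of the week 12 control libraries. After scaling to the same total the median gene stood at 0.23, and 2 genes were called higher. The plot of all log2 changes shows the shift of the whole distribution. Since each week is a table of its own, a difference in scaling and a difference of all genes with age cannot be told apart.

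**Figure D1:**
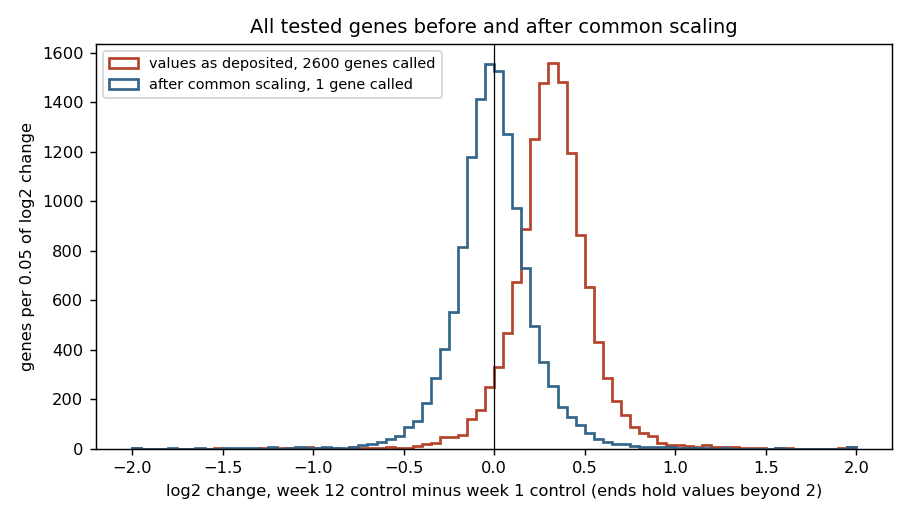
Number of tested genes (y axis) by log2 change, week 12 control minus week 1 control (x axis), for the values as deposited and after 1 common factor per library. The deposited values centre at 0.32 with 2600 genes called, and the scaled values centre near 0 with 1 gene called.

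Outside that test, 9 genes that it did not call were called in each of 3 other fits: the libraries of weeks 1 and 12 alone, the 4 control libraries alone, and DESeq2. They are named after their values were seen, and 55 genes in all were called in at least 1 of those fits. The 3 fits called 29, 30 and 34 genes, the most of any setting apart from the deposited values. Serpina7, which encodes thyroxine-binding globulin, a carrier of thyroid hormone in blood, had 102 and 88.9 FPM in week 12 control livers. In week 1 control livers it had 35.5 and 28.1 FPM (log2 change 1.58 ± 0.25, limma adjusted p = 0.11). Its levels at week 4 were 71.9 and 69.4 FPM and at week 8 they were 69.3 and 54.5 FPM, between those of the 2 ages. Ildr2, a membrane protein linked to liver lipid handling in mice, had 19.6 and 18.1 FPM at week 12 against 7.90 and 9.48 FPM at week 1. Fam129b had 18.4 and 13.7 FPM at week 12 against 7.18 and 6.60 FPM at week 1. For each of these genes the older libraries lay above the younger ones. All 3 fits include the same 4 control libraries, so close libraries and ages without overlap follow from the choice and add no support. Without the first and the second week 1 control library the log2 change of Serpina7 was 1.74 and 1.41. Without those of week 12 it was 1.48 and 1.68.

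Gls2, the liver glutaminase that releases ammonia for urea formation on the portal side, had 88.7 and 90.5 FPM in week 12 control livers against 146 and 153 FPM in week 1 control livers (log2 change -0.73 ± 0.12, limma adjusted p = 0.11). The 2 libraries of each age were close to each other and the ages did not overlap, which the choice of the 9 genes favours. Gm16121, a predicted gene, had 1.33 and 0.836 FPM at week 12 against 4.32 and 3.41 FPM at week 1. The other 4 of the 9 genes, Hp, Lrg1, Saa1 and Saa2, encode proteins that the liver releases in the acute-phase response.

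**Figure D2:**
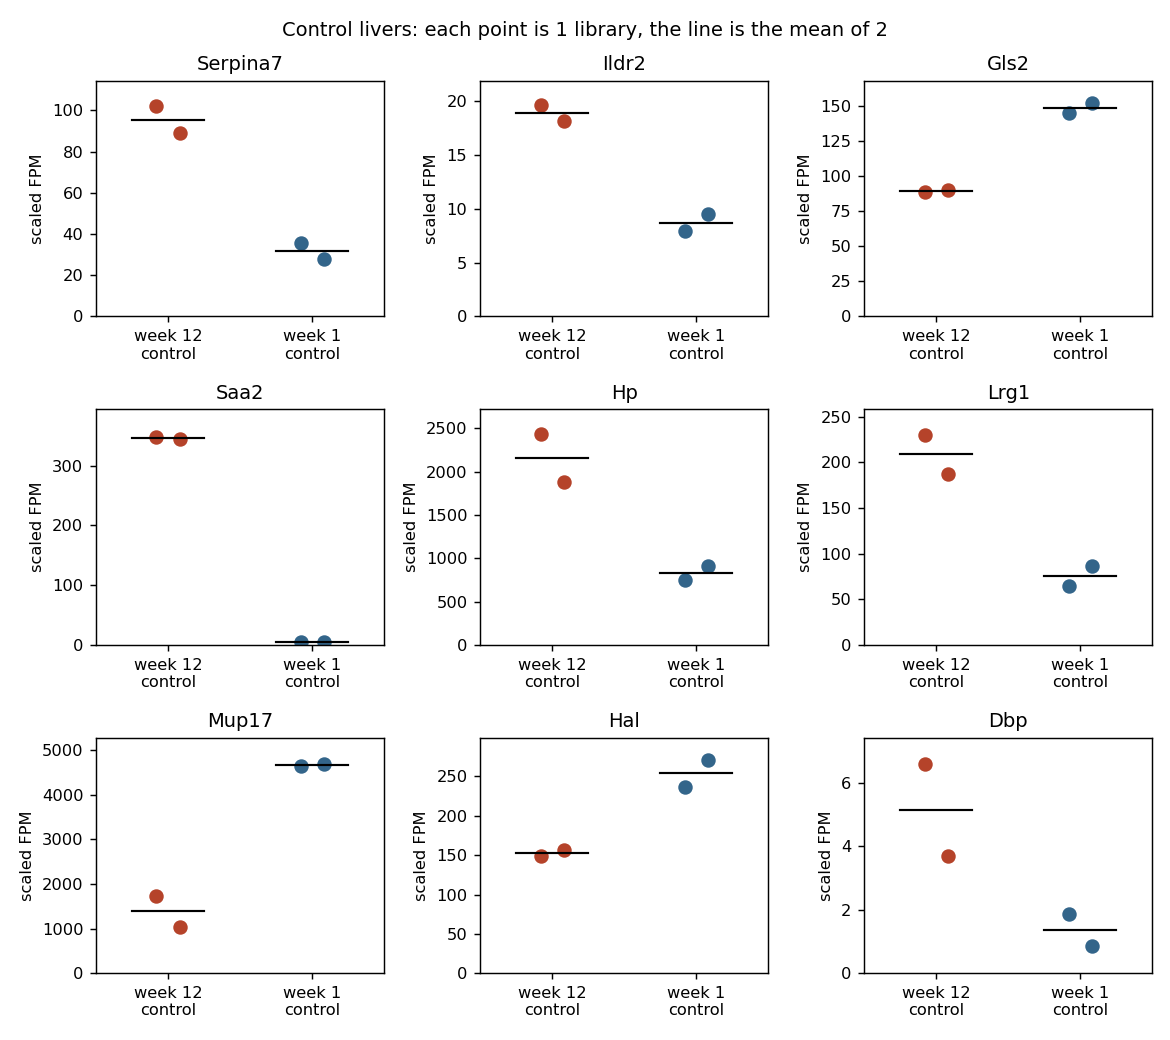
Scaled FPM (y axis, from 0) of 9 genes in control livers, with 1 point per library and a line at the mean of 2, week 12 on the left and week 1 on the right. The 2 ages do not overlap in any of the 9, and none of the 9 passed the adjusted test over all genes. The genes shown were chosen after their values were seen.

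Acute-phase genes stood higher in both week 12 control libraries than in both week 1 control libraries for 19 of 22 tested members, beside 16.2% of all tested genes. The median log2 change of the list was 0.77, beside -0.01 for all genes. At an unadjusted p under 0.05, 14 members were higher, beside 2.28% of all tested genes, but 0 passed the adjusted test. Serum amyloid A is carried on high-density lipoprotein and is the most inducible of these proteins. Saa2 had 348 and 345 FPM in week 12 control livers against 5.72 and 5.01 FPM in week 1 control livers (log2 change 5.89 ± 1.28, limma adjusted p = 0.29). Saa1 had 244 and 398 FPM at week 12 against 8.68 and 11.5 FPM at week 1 (log2 change 4.90 ± 1.12, limma adjusted p = 0.33). Both older libraries were many times higher than both younger ones for the pair.

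The SE of these genes draws on all groups of the fit, and other groups varied between libraries. Saa2 had 18.9 and 4.12 FPM in the control livers of week 4 and 66.9 and 2.99 FPM in those of week 8. In LIDPAD livers it had 44.4 and 54.6 FPM at week 12 and 11.9 and 191 FPM at week 1. One week 1 LIDPAD library was thus above both LIDPAD libraries of week 12, though below both week 12 control libraries, and the LIDPAD log2 change was 0.03. Over the whole list the median log2 change of LIDPAD livers was -0.09, and those of control livers against week 1 were 0.08 at week 4 and 0.20 at week 8.

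Among the other members, Hp (haptoglobin, which binds free haemoglobin) had 2430 and 1882 FPM in week 12 control livers against 753 and 915 FPM in week 1 control livers (log2 change 1.36 ± 0.25, limma adjusted p = 0.17). Lrg1, a secreted leucine-rich glycoprotein, had 230 and 187 FPM at week 12 against 64.5 and 86.7 FPM at week 1. Here too the ages did not overlap. Lcn2, which binds bacterial siderophores, had 126 and 27.8 FPM at week 12 against 2.84 and 1.04 FPM at week 1, and Saa3 had 23.3 and 2.16 FPM against 0.794 and 1.11 FPM. In both of these the first week 12 library was far above the second. Apcs, the serum amyloid P component, had 217 and 90.5 FPM at week 12 against 43.8 and 36.4 FPM at week 1, again with the first library higher. Crp, C-reactive protein, which is only weakly inducible in mice, had a log2 change of -0.11, and Cebpd, a transcription factor of the response, one of -0.33.

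Without the first week 12 control library the list's median was 0.54 with 6 members at an unadjusted p under 0.05, and without the second it was 0.96 with 14. Without the first week 1 control library 9 members had such a p. Summed neutrophil markers were 5.50 and 3.38 FPM in week 12 control livers against 1.78 and 1.95 FPM in week 1 control livers, with 1 of 8 listed genes high enough to test (Csf3r). Of B and plasma cell markers, 4 of 13 were tested. All 4 lay higher in both week 12 libraries, beside 16.2% of all tested genes. The list summed to 14.3 and 17.0 FPM at week 12 against 8.62 and 11.5 FPM at week 1. The part of these cells in the acute-phase values was not tested. Kupffer cell markers summed to 254 and 206 FPM at week 12 against 235 and 272 FPM at week 1 and overlapped.

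The start regions of Saa1 and Saa2 are shown because the 2 genes carry the highest values of the list and are neighbours on chromosome 7. Over 250 bases before the start, 95.2% of Saa1 bases were matched in Saa2, against 61.6% in Saa3. In the transcripts, 22.8% of the 31-base stretches of Saa1 also occur in another serum amyloid A transcript, so that most such stretches tell the genes apart. A share of exact stretches and a share of matched bases are unlike measures, so the 2 values do not rank transcripts against start regions. The 150 bases before each start, from RefSeq on GRCm38.p6, are chr7:46742981-46743130 (minus strand) and chr7:46751683-46751832 (plus strand), written in the direction of the gene. Capitals mark matches to the C/EBP-like motif TTNNGNAA on either strand.
Saa1: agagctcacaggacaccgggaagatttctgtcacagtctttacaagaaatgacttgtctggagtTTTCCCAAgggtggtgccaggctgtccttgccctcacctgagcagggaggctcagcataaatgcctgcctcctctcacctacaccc
Saa2: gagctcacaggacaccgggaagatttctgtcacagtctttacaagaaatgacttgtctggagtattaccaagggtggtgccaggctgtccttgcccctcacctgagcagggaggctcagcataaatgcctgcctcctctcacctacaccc
Saa1 had a match in this stretch and Saa2 had none, though its 250 bases held one further from the start. Of 22 tested acute-phase genes, 18 had a promoter in the RefSeq table, and 14 of these held the C/EBP-like motif within 250 bases, as did 36.9% of all promoter windows of that length. TTCNNNGAA, after STAT factors, was found in 5 of the 18 and in 7.02% of all windows. A match of letters is not a binding site.

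Major urinary proteins, small carriers of pheromones that male liver makes in quantity for the urine, had lower values in most members. Of 20 tested genes, 18 lay lower in both week 12 than in both week 1 control libraries, beside 18.8% of all tested genes. At an unadjusted p under 0.05, 17 were lower, beside 2.74% of all tested genes, but 0 passed the adjusted test. The median log2 change was -1.40, and over 5 other scalings it stayed between -1.39 and -0.77 relative to the median gene. Mup genes took 11.1 and 8.20% of a library's reads at week 12, against 19.7 and 20.5% at week 1. The older libraries thus gave a smaller share to this family in each comparison.

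Mup17 had 1738 and 1048 FPM in week 12 control livers against 4650 and 4694 FPM in week 1 control livers (log2 change -1.79 ± 0.47, limma adjusted p = 0.50). Mup7 had 12620 and 7374 FPM at week 12 against 24855 and 27602 FPM at week 1. Control livers of week 4 gave Mup17 levels of 3067 and 1069 FPM, and those of week 8 gave 1225 and 1476 FPM. Both week 8 libraries were thus below both of week 1, and the list's medians against week 1 were -1.13 at week 4 and -1.36 at week 8. LIDPAD livers had Mup17 at 1044 and 1068 FPM at week 12 and 4970 and 4625 FPM at week 1, with a list median of -1.61. Without the second week 12 control library 1 Mup gene had an unadjusted p under 0.05, and the median was -1.08.

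Mup20, Mup21 and Mup3 had other values. Mup20 (darcin, the pheromone protein that attracts female mice) had 5797 and 3808 FPM at week 12 against 5061 and 5556 FPM at week 1. Mup21 had 225 and 157 FPM against 189 and 198 FPM, and for both genes the ages overlapped. Mup3 had 5176 and 3433 FPM at week 12 against 5590 and 5719 FPM at week 1, a log2 change of -0.42. The log2 changes of Mup20 and Mup21 were -0.17 and -0.04, and turned positive on the values as deposited (0.18 and 0.31), at the same total (0.086 and 0.22), at the same total without mitochondrially encoded genes (0.11 and 0.25) and under quantile normalization (0.24 and 0.029).

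In the GENCODE transcripts, 21.2% of the 31-base stretches of Mup20, 23.9% of Mup3 and 29.8% of Mup21 occurred in another tested Mup transcript, against 86.2 to 100% for the 16 others apart from Mup6. Reads of those 16 genes could be split among near-identical copies, so their single values, those of Mup17 and Mup7 above included, are uncertain. Mup6, at 8.26% shared, had 1.94 and 0.443 FPM at week 12 against 4.28 and 5.24 FPM at week 1, a log2 change of -1.79. It is a low gene that shares the direction of the 16 but few exact 31-base stretches with other Mup transcripts. Over 250 bases before the start it matched Mup11 in 84% of bases and Mup7 in 54.8%. Whether reads of the far higher Mup genes reach Mup6 was not tested.

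**Figure D3:**
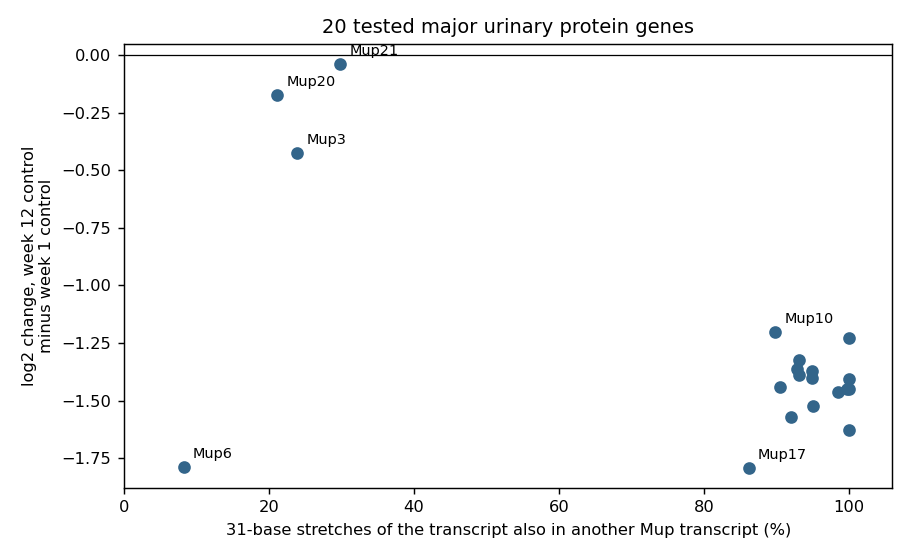
Log2 change of the 20 tested major urinary protein genes, week 12 control minus week 1 control (y axis), by the percentage of 31-base stretches of the transcript that occur in another of these transcripts (x axis). The 16 genes at 86.2% or more lie between -1.79 and -1.20, Mup3, Mup20 and Mup21 lie between -0.42 and -0.04, and Mup6 lies low at 8.26%.

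The 150 bases before the start of 4 Mup genes on chromosome 4 are shown for a pair from the block (Mup17, Mup2) and a pair outside it (Mup3, Mup21). All are on the minus strand, at chr4:61595833-61595982, chr4:60139857-60140006, chr4:62087318-62087467 and chr4:62150842-62150991 of GRCm38.p6 (RefSeq), with matches to TTNNGNAA in capitals.
Mup17: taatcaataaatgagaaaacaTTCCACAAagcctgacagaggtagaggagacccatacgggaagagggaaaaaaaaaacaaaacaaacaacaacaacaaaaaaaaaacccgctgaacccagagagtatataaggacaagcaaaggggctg
Mup2: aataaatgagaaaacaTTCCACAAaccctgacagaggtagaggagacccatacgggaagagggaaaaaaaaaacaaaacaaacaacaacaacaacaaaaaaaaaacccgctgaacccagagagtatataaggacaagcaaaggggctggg
Mup3: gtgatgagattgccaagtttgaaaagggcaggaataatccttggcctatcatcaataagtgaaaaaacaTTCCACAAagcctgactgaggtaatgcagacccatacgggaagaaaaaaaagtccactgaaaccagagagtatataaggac
Mup21: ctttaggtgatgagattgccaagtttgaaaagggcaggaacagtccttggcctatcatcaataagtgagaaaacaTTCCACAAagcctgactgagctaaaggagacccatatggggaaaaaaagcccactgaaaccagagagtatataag
Over 250 bases, Mup2 and Mup17 matched in 97.2% of bases and Mup3 and Mup21 in 91.6%, while Mup17 and Mup3 matched in 71.6%. All 4 hold the same capital stretch, at unequal distances from the start. Genes of the block that are not shown varied in their likeness to Mup17. Mup15 matched it in 98.8% of bases and Mup7 in 47.2%. Mup14 matched Mup17 in 78.8% and Mup3 in 80.4%. Of 20 tested Mup genes 13 had a promoter in the table, all 13 held TTNNGNAA and 0 held TTCNNNGAA. Mup20 is named only.

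Periportal hepatocyte genes were lower at week 12 in 11 of 12 tested members, beside 18.8% of all tested genes, with a median log2 change of -0.67. Of these, 8 had an unadjusted p under 0.05, beside 2.74% of all tested genes, and 0 passed the adjusted test. On the deposited values and at the same totals 5 had such a p. Hal, histidase, the enzyme that starts histidine breakdown, had 148 and 156 FPM in week 12 control livers against 237 and 270 FPM in week 1 control livers (log2 change -0.73 ± 0.16, limma adjusted p = 0.29). Cyp2f2, a portal-side cytochrome P450, had 188 and 196 FPM at week 12 against 331 and 357 FPM at week 1. Cdh1, E-cadherin, had 22.3 and 27.7 FPM at week 12 against 52.6 and 50.9 FPM at week 1. In each of these genes the 2 libraries of an age were close and the ages did not overlap.

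The periportal median was -0.25 in control livers of week 4 and -0.04 in those of week 8, each against week 1. Hal had 218 and 178 FPM at week 4 and 204 and 271 FPM at week 8, so its lowest control values were those of week 12. In LIDPAD livers the list's median was -1.29 between the same ages, and Hal had 51.8 and 47.3 FPM at week 12 and 232 and 199 FPM at week 1. The difference of the 2 changes for Hal was -1.38 on the log2 scale (limma adjusted p = 0.057). On the central side, 10 of 15 tested genes lay higher at week 12, beside 16.2% of all tested genes, with a median of 0.27. At an unadjusted p under 0.05, 1 member was higher, beside 2.28% of all tested genes. The median was 0.13 without the first week 12 control library and 0.415 without the second, and 0.52 to 0.61 on the deposited values and at the same totals, where all genes shift. Glul, glutamine synthetase, had 618 and 572 FPM at week 12 against 496 and 433 FPM at week 1. Lect2, a secreted chemotactic protein, had 57.1 and 40.9 FPM against 39.0 and 36.0 FPM.

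Urea cycle genes overlap with that list and were lower at week 12 in 6 of 8 tested members, beside 18.8% of all tested genes, with a median log2 change of -0.41. At an unadjusted p under 0.05 there were 5, beside 2.74% of all tested genes, and 0 passed the adjusted test. The 5 became 2 without the first week 1 or the second week 12 control library and 3 without the second week 1 control library. On the deposited values and at the same total, with or without mitochondrially encoded genes, 0 members were lower and 1 higher at that p, with medians between -0.15 and -0.061, or -0.38 to -0.39 relative to the median gene. Ass1, argininosuccinate synthase, had 869 and 927 FPM in week 12 control livers against 1376 and 1293 FPM in week 1 control livers (log2 change -0.57 ± 0.13, limma adjusted p = 0.37). Cps1, the mitochondrial enzyme that fixes ammonia, had 3079 and 2800 FPM at week 12 against 4151 and 4260 FPM at week 1. The week 8 control livers had 4160 and 4387 FPM of Cps1, at the level of week 1. LIDPAD livers had 1629 and 1675 FPM at week 12 and 4622 and 4080 FPM at week 1.

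Genes of glucose production and insulin response had a median log2 change of -0.26, and 2 other scalings gave a positive median. In both libraries 10 of 18 members were lower, beside 18.8% of all tested genes. At an unadjusted p under 0.05, 3 were lower, beside 2.74% of all tested genes. Pck1, the enzyme that commits carbon to glucose, had 606 and 434 FPM in week 12 control livers against 909 and 801 FPM in week 1 control livers. Tat, tyrosine aminotransferase, had 537 and 444 FPM at week 12 against 989 and 771 FPM at week 1. Tat and Tsc22d3 are both known targets of the glucocorticoid receptor. Tsc22d3 had 66.3 and 44.7 FPM at week 12 against 105 and 101 FPM at week 1 (log2 change -0.92 ± 0.18, limma adjusted p = 0.20). Glucocorticoid-induced genes had a median of -0.29 over 13 members, with log2 changes from -1.22 to 2.00, and 1 other scaling gave a positive median. In both libraries 7 were lower and 1 was higher, beside 18.8 and 16.2% of all tested genes. At an unadjusted p under 0.05, 3 were lower, beside 2.74% of all tested genes.

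**Figure D4:**
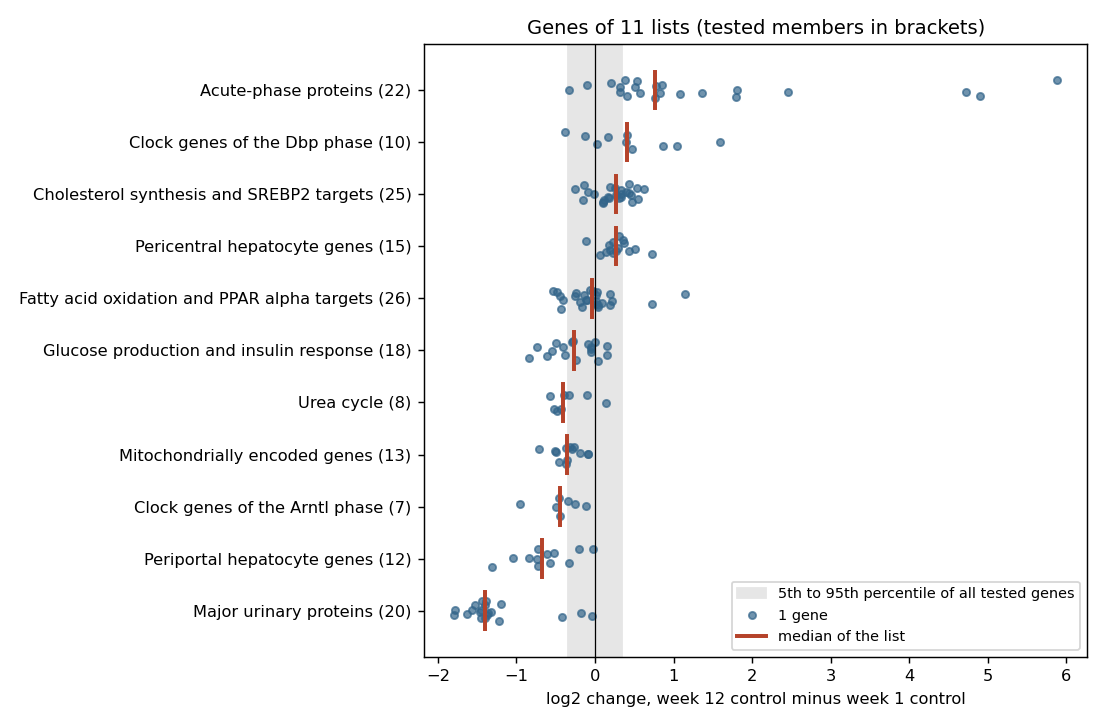
Log2 change of every tested gene of 11 lists, week 12 control minus week 1 control (x axis), with the number of tested members in brackets, the median as a red bar and the range that holds 90% of all tested genes in grey. Acute-phase genes lie mostly right of the grey band, and major urinary protein and periportal genes left of it.

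Clock genes oscillate daily, and in liver the Arntl group and the Dbp group peak at opposite times. All 7 genes of the Arntl group had negative log2 changes, 6 of them with no overlap, beside 18.8% of all tested genes, and the median was -0.45. The median was -0.11 on the deposited values and between -0.44 and -0.43 relative to the median gene over 5 other scalings. Arntl, which encodes the activator BMAL1, had 12.8 and 15.2 FPM in week 12 control livers against 17.8 and 21.1 FPM in week 1 control livers. Its partners Clock and Npas2 had 67.7 and 72.3 FPM against 81.4 and 86.3 FPM, and 2.05 and 5.58 FPM against 6.76 and 7.54 FPM. The repressor genes Cry1 and Nfil3 had log2 changes of -0.45 and -0.50, and the nuclear receptor gene Rora one of -0.11. Those of Clock and Rora were positive on the deposited values (0.092 and 0.24).

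In the Dbp group 7 of 10 tested genes lay higher at week 12 and 1 lay lower, beside 16.2 and 18.8% of all tested genes. The median was 0.40, with 2 members higher at an unadjusted p under 0.05, beside 2.28% of all tested genes. Without the first week 12 control library the median was 0.19 with 0 such members, and without the second it was 0.60 with 4. Without the second week 1 control library 0 members had such a p. Dbp, an output regulator of liver rhythms, had 6.57 and 3.69 FPM in week 12 control livers against 1.88 and 0.862 FPM in week 1 control livers (log2 change 1.60 ± 0.57, limma adjusted p = 0.89). Nr1d1, the repressor REV-ERB alpha, had 37.2 and 28.2 FPM at week 12 against 17.2 and 17.9 FPM at week 1. Per3 had 9.52 and 5.14 FPM against 3.93 and 2.48 FPM. Log2 changes were 0.47 for Nr1d2, 0.41 for Tef, 0.39 for Per2, 0.16 for Bhlhe40, 0.02 for Hlf, -0.13 for Cry2 and -0.39 for Per1. No gene of either group passed the adjusted test.

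The log2 difference of Arntl and Dbp was positive in all control libraries. It was 2.94 and 3.99 at week 1, 3.55 and 4.74 at week 4, 4.70 and 2.98 at week 8 and 0.91 and 1.91 at week 12. LIDPAD livers had -2.09 and 0.29 at week 1, -0.41 and -0.82 at week 4, -1.49 and 1.504 at week 8 and -1.83 and -1.72 at week 12. The week 12 control libraries were the lowest of the control libraries, and one LIDPAD library of week 8 lay between them. The part of a clock difference in the other gene groups was not tested, and week, table and any shared hour of collection cannot be told apart in these 4 libraries. Over 16 libraries of weeks 1 to 12, which share the scale and both diets, the genes most like Dbp by Pearson's r were Per3 (0.97), Tef (0.97), Nr1d2 (0.96), Slc16a12 (0.91) and Ppara (0.91).

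**Figure D5:**
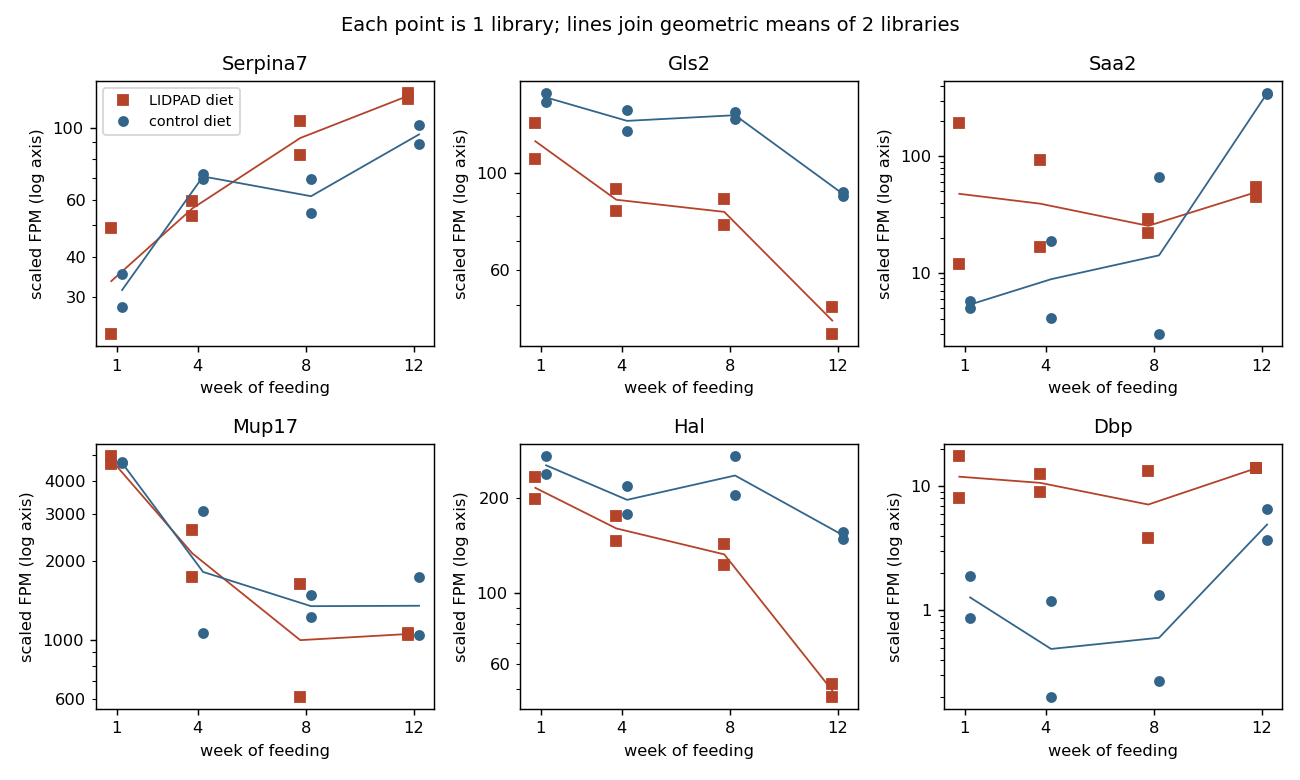
Scaled FPM (log axis) of 6 genes by week of feeding in LIDPAD livers (squares) and control livers (circles), with 1 point per library and lines through the geometric means of 2. Serpina7 is higher and Gls2 lower at week 12 than at week 1 in both diets, Saa2 spreads widely in control livers of weeks 4 and 8 and in LIDPAD livers of week 1, Mup17 is low by week 8, and Dbp sits lower in control livers at every week.

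Of the lists of other liver functions, cholesterol synthesis genes had a median log2 change of 0.27, with 9 of 25 higher and 2 lower in both libraries, beside 16.2 and 18.8% of all tested genes. The median was 0.0047 without the second week 1 control library and 0.44 without the first. Mvk, mevalonate kinase, had 14.0 and 14.8 FPM in week 12 control livers against 9.81 and 9.61 FPM in week 1 control livers. Mitochondrially encoded genes had a median of -0.36, with 11 of 13 lower in both libraries, beside 18.8% of all tested genes. At an unadjusted p under 0.05, 3 were lower, beside 2.74% of all tested genes. That median was -0.0078 on the deposited values, -0.10 and -0.073 at the same total with and without these genes counted, and between -0.35 and -0.19 relative to the median gene over 5 other scalings. Medians were between -0.04 and 0.07 for fatty acid synthesis (21 genes), fatty acid oxidation (26), lipid droplets (16), cell cycle (16), extracellular matrix (26), interferon response (32) and MHC class II (7), and those of fatty acid oxidation and lipid droplets turned positive under 3 and 4 other scalings. None of the members of these lists passed the adjusted test.

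The change between the ages was also set against that of LIDPAD livers, in a test of the difference itself. It called 3 of 13051 genes (0.023%), and 1012 genes (7.75%) had an unadjusted p under 0.05. In control livers none of the 3 was past an unadjusted p of 0.05. Adgrf1, an adhesion receptor, had 16.9 and 13.4 FPM in week 12 control livers against 15.7 and 20.8 FPM in week 1 control livers. Plin4, a lipid droplet coat protein, had 6.99 and 7.97 FPM against 7.87 and 5.98 FPM. Cyp2c70, the P450 that makes muricholic acids in mice, had 355 and 316 FPM against 341 and 410 FPM. The ages overlapped for all 3 genes.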

How the data were processed

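Liver RNA was extracted with TRIzol and columns and a company prepared the libraries, per the labels' protocols. Per the submitters' processing notes, featureCounts, HISAT2 and DESeq2 were used with GRCm38, without roles or settings; strand and multi-mapping settings are not given in the sources used here. The authors' deposited signal values are FPM in 7 tables, 1 per week, each scaled separately. In every column 100% of values were whole multiples of 1 read within 0.02 reads. Genes with 2 reads outnumbered genes with 1 read 5.35 times, so a chi-square near 2 is what sampling of paired reads gives within a library.

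Blocks of 4 samples were averaged to 1 library. Median-of-ratios factors over 16 libraries of weeks 1 to 12 gave the common scale. Genes with at least 1 FPM in 2 of the 4 control libraries were fitted with limma 3.58.1 (R 4.3.3) on log2(FPM + 0.5), as 8 group means with a mean-variance trend, and called at a Benjamini-Hochberg adjusted p under 0.05. An exact permutation test of 2 against 2 libraries cannot go below 0.333. Simulated data for week 12 control against week 1 control (12865 genes tested) held 100 genes changed 2-fold and 100 changed 4-fold. Of these, 72.9% of 2-fold and 98% of 4-fold changes were recovered, and 6.14% of 179 calls were false. So many changed genes loosen the adjusted threshold, so these shares do not carry over to the real comparison with 1 call. Alternatives were 5 scalings, pseudocounts, filters, other sets of libraries, no trend, library weights, a replicate block, edgeR 4.0.16, DESeq2 1.42.0 and leaving out each library. The fit without 1 week 4 library was added after seeing the data. Tables and plots used Python 3.11.15, pandas 2.3.3 and matplotlib 3.10.9.

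The comparison, members and gene lists were chosen with earlier results of these data known. Named genes are the genes called in the diet comparison, the clock genes, and, where no list had called members, examples chosen after their values were seen. Certain genes are not reported here.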

Additional observations from a re-analysis of the deposited data

Results flagged for a closer look

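In 3 genes the change between week 12 and week 1 differed between LIDPAD and control livers by the test of that difference (limma, Benjamini-Hochberg adjusted). Adgrf1 had a difference of -3.09 ± 0.37 on the log2 scale (adjusted p = 0.012), with 0.267 and 0.396 FPM in LIDPAD livers at week 12 and 9.70 and 6.49 FPM in LIDPAD livers at week 1. Plin4 had one of 2.49 ± 0.32 (adjusted p = 0.014), with 88.8 and 80.2 FPM in LIDPAD livers at week 12 and 13.0 and 13.9 FPM at week 1. Cyp2c70 had one of -1.26 ± 0.18 (adjusted p = 0.044), with 174 and 186 FPM in LIDPAD livers at week 12 and 452 and 511 FPM at week 1. The control values of these genes overlapped between the ages. Over 19 other settings, some of which left out 1 library, Adgrf1 lost its call in 5, Plin4 in 8 and Cyp2c70 in 12. The log2 differences kept their sign, at -4.31 to -2.50 for Adgrf1, 2.31 to 2.74 for Plin4 and -1.39 to -1.03 for Cyp2c70.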

How the results depend on the processing

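The count of called genes between week 12 and week 1 control livers was 1 and moved with the processing. It was 2600 on the deposited values, 2 at the same total per library with or without mitochondrially encoded genes, 0 under quantile normalization, with no filter and with no trend, 29 with the libraries of weeks 1 and 12 only, 30 with the 4 control libraries only, and 34 with DESeq2. Leaving out 1 library of week 1 or 12 gave 0 to 3. The count of the LIDPAD change minus the control change was 3; it was 7 on the deposited values, 1 at the same total with or without mitochondrially encoded genes, 6 under quantile normalization, 25 with weeks 1 and 12 only, 0 with all 7 weeks, 13 with library weights and 85 with DESeq2. It was 0 to 9 with 1 library left out, and 19 without the second week 4 control library, a fit added after seeing the data. The other settings kept both counts within 1.5 times. The cause of these differences was not tested.

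Replicate numbers did not pair the libraries (correlation 0.0157 over genes), and a replicate block gave 1 gene and 4 genes in the 2 comparisons. Of 1024 values of 54 named genes under other settings, 930 kept their direction and their side of the threshold, 25 lost the call, 47 gained it and 22 changed sign, in 6 genes. On the deposited values Mup20 stood at 0.18, Mup21 at 0.31, Clock at 0.092, Rora at 0.24 and Cry2 at 0.21. At the same total, without and with mitochondrially encoded genes left out, Mup20 stood at 0.086 and 0.11, Mup21 at 0.22 and 0.25, Rora at 0.15 and 0.18 and Cry2 at 0.12 and 0.14, and Clock at 0.027 with them left out. Under quantile normalization Mup20 stood at 0.24 and Mup21 at 0.029. With 1 library left out, Mup20 ranged from -0.48 to 0.13, Mup21 from -0.30 to 0.22, Rora from -0.34 to 0.11, Cry2 from -0.40 to 0.13 and Hlf from -0.033 to 0.077 on the log2 scale. With 2 libraries a group, the median half-width of a 95% interval was 0.37 on the log2 scale, which limits what smaller changes can show.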
